A study of Mus musculus with 6 samples.

Results

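The sebaceous gland lipid genes are 30 genes known from the oil-producing gland of the hair follicle: enzymes that lengthen, desaturate, hydroxylate or esterify fatty acids, proteins of lipid droplets, regulators of gland cells and gland markers. They were chosen by name, with earlier results of these data known, and were read from the array probes whose transcript accession maps to each symbol. Of the 30, 29 had such a probe, and 25 were well above background on every array of at least 1 group, out of 22823 genes and unnamed transcripts tested in all. The arrays measured messenger RNA in skin, described as telogen (resting phase), of 6 male mice labelled as not treated, on a mixed C57Bl6/129Sv background. The wild-type (WT) mice were 20, 19 and 18 weeks old (replicates 1, 2 and 3). The mice in which Sox4, a transcription factor gene, was conditionally knocked out in skin (KO) were 17, 18 and 16 weeks old. The sources used here do not give the driver of the recombinase or the age at deletion. Each replicate is 1 array, and since the ages differ within a group the arrays were taken as different animals.

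Sebaceous gland cells fill with lipid as they mature and then burst, releasing sebum, a mix of wax esters, triacylglycerols, cholesteryl esters and free fatty acids that coats hair and skin. In the mouse the nuclear receptor Pparg is required to form the gland, and very long chain elongases, desaturases and acyltransferases give sebum its composition. In RNA from whole skin, fewer gland cells and less of a transcript per gland cell cannot be told apart.

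Sox4 was lower on every KO array. Its brighter probe lay at 0.41, 0.65 and 0.75 log2 units in WT and at −2.94, −2.88 and −3.05 in KO, relative to the 75th percentile of each array (log2 fold change −3.56, SE 0.13, limma adjusted p = 0.00135). All values below use that scale, and fold changes are KO minus WT. Between 52.1% and 66.4% of probes were well above background on an array, no probe was saturated, and the number of arrays limits the precision. The arrays lay on 3 slides. Slide 1 held WT replicate 1 and KO replicate 3, slide 2 held WT replicates 2 and 3 and KO replicate 1, and slide 3 held KO replicate 2 alone.

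Transcripts of the gland were detected in both groups. Scd1, Scd3, Elovl3, Awat1, Awat2, Mc5r, Krt79, Mgst1 and Dgat2l6, transcripts typical of mouse sebaceous glands, were well above background on all 6 arrays. Far2, Fads2, Alox15 and Cyp2g1, also members, were not well above background on every array of either group. Several members are also expressed elsewhere in skin: Fa2h and the elongases in epidermis, Krt79 in the upper follicle, Cidea, Pparg and Plin2 in fat, Plin5 and Ldhb in muscle.

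None of the 25 measured members passed the threshold of an adjusted p under 0.05 over all genes (smallest adjusted p = 0.208, Hsd3b6), while 5 of 22823 features, 0.0219%, did. Most members lay lower in KO. Of the 25, 22 (88%) had a negative fold change, against 64.1% of all features, and the median was −0.32 on the log2 scale against −0.085 for all features. For 11 members (44%) every KO array lay below every WT array, against 11.8% of all features, and for 1, Ldhb, every KO array lay above (7.56% of all features). At an unadjusted limma p under 0.05, 8 members (32%) were lower, against 5.5% of all features, and none was higher, against 6.26%. Those counts describe these 6 arrays: the members were listed with earlier results known and are no independent test.

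**Figure D1:**
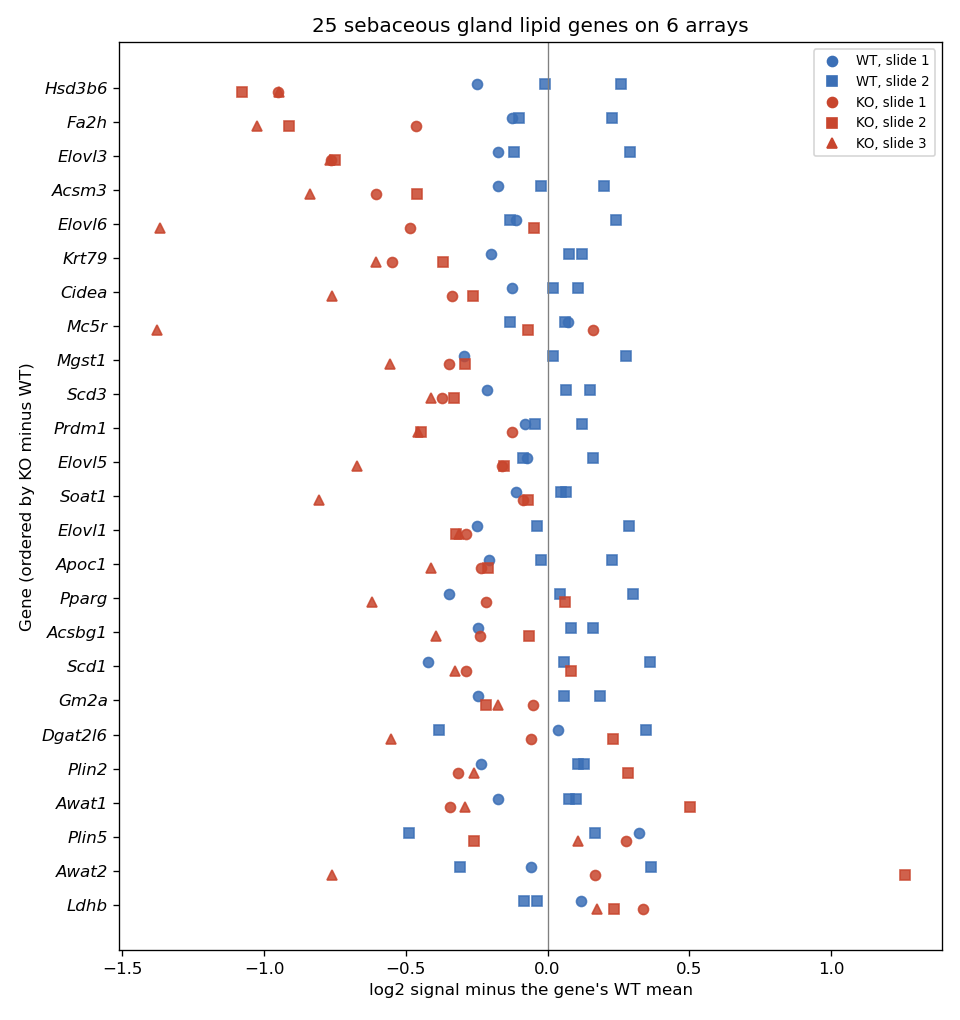
Log2 signal of each of the 25 measured sebaceous gland lipid genes on each of the 6 arrays, minus that gene's mean over the 3 WT arrays (horizontal axis), with genes ordered by KO minus WT (vertical axis). Blue is WT and red is KO, and the marker gives the slide (circle 1, square 2, triangle 3). KO points lie to the left of all WT points for 11 genes, from Hsd3b6 (−0.99) to Apoc1 (−0.29), and KO replicate 2, the triangle, is the lowest of the 6 arrays for 17 genes.

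Members are counted here by step of sebum synthesis. The steroid enzyme, 3 of 4 elongases, 2 of the 3 measured desaturases and hydroxylases and 1 of 2 acyl-CoA synthetases were lower on every KO array. So were 1 of 3 droplet proteins, 1 of 3 regulators and 2 of the 5 other measured members. None of the 4 measured wax and ester synthesis genes was, and their median fold change was −0.085. The share over all features was 11.8%, and groups this small cannot be read against it. Whether these steps differ from each other was not tested.

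Promoters are shown for the 3 enzymes of smallest limma p among members lower on every KO array that had a promoter sequence. The keratin Krt79, which ranked between Acsm3 and Scd3 by p, is left out. Each gene was chosen by its own values, and whether they vary together was not tested. RefSeq windows (GRCm38.p6) were matched by symbol for 22 of the 30 members and for 7 of the 11 without overlap. The 250 bases before the annotated start are printed 5′ to 3′ on the gene's strand for Hsd3b6 (minus strand, chr3:98814444-98814693), Acsm3 (plus strand, chr7:119760673-119760922) and Scd3 (plus strand, chr19:44203038-44203287), with motif matches in capitals.
Hsd3b6: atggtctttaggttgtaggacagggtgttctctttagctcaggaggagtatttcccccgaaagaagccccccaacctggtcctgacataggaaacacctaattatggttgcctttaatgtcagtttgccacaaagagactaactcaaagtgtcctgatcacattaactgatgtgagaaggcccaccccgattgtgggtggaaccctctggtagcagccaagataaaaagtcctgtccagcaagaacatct
Acsm3: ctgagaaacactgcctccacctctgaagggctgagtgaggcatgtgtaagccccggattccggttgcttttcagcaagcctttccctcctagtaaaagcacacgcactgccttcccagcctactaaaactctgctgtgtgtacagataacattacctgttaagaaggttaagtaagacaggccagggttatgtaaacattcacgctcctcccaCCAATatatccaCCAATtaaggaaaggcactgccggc
Scd3: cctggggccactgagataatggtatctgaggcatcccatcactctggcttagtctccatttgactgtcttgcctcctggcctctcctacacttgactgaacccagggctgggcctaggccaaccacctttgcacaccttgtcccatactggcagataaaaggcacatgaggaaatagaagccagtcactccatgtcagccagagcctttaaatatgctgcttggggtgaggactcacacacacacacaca
The motifs searched on both strands were AGGTCA, bound by nuclear receptors, the E-box CACGTG, the CCAAT box, the TATA box TATAAA, and AACAAAG or AACAATG, forms bound by SOX factors. The capitals in Acsm3 are 2 CCAAT boxes that start 37 and 25 bases before the start, and the Hsd3b6 and Scd3 windows hold none of the letters searched. Over the members, 11 of 22 windows held CCAAT (34.5% of 27025 genes with a window), 5 held AGGTCA (13.8% of all; Elovl6, Ldhb, Plin2, Plin5 and Pparg) and 1 held the E-box (6.05%; Elovl5). The SOX letters were in 2 (8.14% of all), those of Dgat2l6 and Far2, and TATAAA was in none (13% of all). These matches describe the letters of these windows only.

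Hsd3b6, a 3-beta-hydroxysteroid dehydrogenase that converts steroid precursors, had the largest difference. It read −1.06, −0.55 and −0.81 in WT replicates 1, 2 and 3 and −1.89, −1.75 and −1.76 in KO replicates 1, 2 and 3. The KO arrays lay close together and below all WT arrays, 1.99-fold lower on average (log2 fold change −0.99, SE 0.16, limma unadjusted p = 0.000513, adjusted p = 0.208). It ranked 56 of 22823 features by p. Without WT replicate 1 its fold change was −1.12 and it passed the threshold (limma adjusted p = 0.0418). In the other alternatives adjusted p ran from 0.154 to 0.948.

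Elovl3, an elongase of very long chain fatty acids whose loss in mice disturbs sebum and coat, read 2.42, 2.89 and 2.47 in WT against 1.84, 1.82 and 1.83 in KO. The KO arrays were nearly equal (SD 0.0098) and all lay below WT. The log2 fold change was −0.76 (SE 0.15, limma unadjusted p = 0.00194, adjusted p = 0.274). Among the other elongases, Elovl1, which lengthens saturated very long chains, read 6.89, 7.42 and 7.10 in WT against 6.82, 6.83 and 6.85 in KO. Its groups did not overlap, but WT replicate 1 lay only 0.039 above the highest KO array. At its second, dimmer probe (−0.24) the groups overlapped, with KO replicates 1 and 2 (3.74 and 3.54) above WT replicate 1 (3.49). Elovl5, an elongase of polyunsaturated fatty acids, read 5.13, 5.36 and 5.11 in WT against 5.04, 4.52 and 5.04 in KO. It also did not overlap, with KO replicate 2 far below the other KO arrays. The fold changes of Elovl1 and Elovl5 were −0.31 and −0.33 (limma unadjusted p = 0.0947 and 0.111). Elovl6, which lengthens palmitate to stearate, read 6.01, 5.99 and 6.36 in WT against 6.07, 4.75 and 5.63 in KO. Its fold change of −0.63 (SE 0.33, limma unadjusted p = 0.104) rested on KO replicate 2, without which it was −0.27.

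Fa2h, the fatty acid 2-hydroxylase, read 5.69, 6.05 and 5.72 in WT against 4.91, 4.80 and 5.36 in KO. All KO arrays were below WT, KO replicate 3 the least so (log2 fold change −0.80, SE 0.19, limma unadjusted p = 0.00461, adjusted p = 0.274). The stearoyl-CoA desaturases, which place a double bond in saturated fatty acids, gave unlike values. Scd3, restricted largely to the gland and its surroundings in skin, read 3.95, 4.31 and 4.23 in WT against 3.83, 3.75 and 3.79 in KO. KO lay below WT on all arrays at this probe (log2 fold change −0.37, SE 0.13, limma unadjusted p = 0.0286). Of its other 2 probes, that at −0.50 did not overlap and that at −0.40 did, with KO replicate 1 (1.34) above WT replicate 1 (1.18). Scd1, the main skin isoform, read 5.61, 6.09 and 6.40 in WT against 6.12, 5.71 and 5.75 in KO. Its groups overlapped (log2 fold change −0.18, SE 0.23, limma unadjusted p = 0.466). In the RefSeq order Scd1 and Scd3 lie on chromosome 19 with 2 coding genes between them, Scd2 and Scd4. The probe sequences were not used here, so sharing of signal between these close paralogs was not tested.

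Of the acyl-CoA synthetases, which activate fatty acids, Acsm3 acts on medium chains. Acsm3 read −0.24, 0.13 and −0.092 in WT against −0.53, −0.91 and −0.67 in KO. All KO arrays were lower (log2 fold change −0.63, SE 0.16, limma unadjusted p = 0.00559, adjusted p = 0.274), and its second probe gave −0.69. Acsbg1, which activates long and very long chains, overlapped between groups, with a mean of 4.91 ± 0.22 in WT and 4.67 ± 0.16 in KO (SD, n = 3) and a fold change of −0.23.

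Wax and ester synthesis genes showed no such separation. Awat1, an acyl-CoA wax alcohol acyltransferase, read 2.76, 3.01 and 3.04 in WT against 3.44, 2.64 and 2.59 in KO, so that KO replicate 1 was the highest and the other KO arrays the lowest of all 6. Awat2, its relative that makes wax esters in skin, read 0.56, 0.30 and 0.98 in WT against 1.87, −0.15 and 0.78 in KO, the widest KO spread of any member (SD 1.01). Dgat2l6, a further member of that acyltransferase family, read 2.51, 2.09 and 2.82 in WT against 2.70, 1.92 and 2.41 in KO. For these 3 genes KO replicate 1 was the highest KO array and KO replicate 2 or 3 the lowest, and their fold changes of −0.045, 0.22 and −0.13 were all smaller than their SE of 0.25, 0.49 and 0.26. The 3 lie near each other on the X chromosome: no coding gene separates Dgat2l6 from Awat1 in the RefSeq order, and 2 separate Awat2 from Dgat2l6. Soat1, which esterifies cholesterol, had −0.54 ± 0.10 in WT and −0.86 ± 0.42 in KO (SD, n = 3), with KO replicate 2 at −1.35 and the other KO arrays within the WT range. Far1 had no named probe, and Far2, like Far1 a reductase that makes fatty alcohols for wax, was not well above background on any array.

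Among the droplet proteins, Cidea, which enlarges lipid droplets in gland cells and in brown fat, read 5.96, 6.10 and 6.19 in WT against 5.82, 5.32 and 5.74 in KO. The groups did not overlap (log2 fold change −0.45, SE 0.17, limma unadjusted p = 0.0309). Plin2, the coat protein of droplets in most cells, and Plin5, typical of oxidative tissue, overlapped, with fold changes of −0.097 and 0.041. Plin2 had means of 4.79 ± 0.20 in WT and 4.69 ± 0.33 in KO (SD, n = 3). For Plin5 they were 0.81 ± 0.43 in WT and 0.85 ± 0.27 in KO. Plin2 was highest of all arrays in KO replicate 1 (5.07), as was Awat1.

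The 3 regulators of the gland had a median fold change of −0.34, and 1 of them, Prdm1, did not overlap between groups. Prdm1 encodes Blimp1, a repressor linked to the control of gland size. It read 1.78, 1.82 and 1.98 in WT against 1.41, 1.40 and 1.73 in KO. KO replicate 3 lay just under WT and the other KO arrays clearly below (log2 fold change −0.34, SE 0.14, limma unadjusted p = 0.0460). Pparg overlapped, at 2.55, 3.20 and 2.94 in WT and 2.96, 2.28 and 2.68 in KO (fold change −0.26, SE 0.24). Mc5r, the melanocortin receptor that promotes sebum secretion, read −1.70, −1.71 and −1.90 in WT against −1.84, −3.15 and −1.61 in KO. KO replicate 2 alone was low, and without it the fold change of −0.43 became 0.046.

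Of the remaining gland genes, the keratin Krt79, found in the gland duct and the upper follicle, read 8.19, 8.51 and 8.46 in WT against 8.02, 7.78 and 7.84 in KO. All KO arrays lay below WT (log2 fold change −0.51, SE 0.14, limma unadjusted p = 0.00896, adjusted p = 0.293). Apoc1, an apolipoprotein, read 6.78, 7.21 and 6.96 in WT against 6.77, 6.57 and 6.75 in KO. It did not overlap, yet WT replicate 1 (6.78) and KO replicate 1 (6.77) were almost equal (log2 fold change −0.29, SE 0.15). Mgst1, a membrane glutathione transferase, had means of 5.525 ± 0.29 in WT and 5.13 ± 0.14 in KO at its brighter probe (SD, n = 3). It overlapped there (−0.40, limma unadjusted p = 0.0605). At its other probe, which read 4.99, 5.48 and 5.14 in WT against 4.69, 4.44 and 4.78 in KO, it did not (−0.57). Gm2a, a lipid-carrier protein of lysosomes, overlapped, and its 2 probes disagreed in sign (−0.15 and 0.054). The brighter of them had means of 0.81 ± 0.22 in WT and 0.66 ± 0.087 in KO (SD, n = 3). Ldhb, a lactate dehydrogenase subunit, was the exception in direction. It read 4.62, 4.46 and 4.42 in WT against 4.73, 4.68 and 4.84 in KO, higher on all KO arrays (log2 fold change 0.25, SE 0.12, limma unadjusted p = 0.0711).

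**Figure D2:**
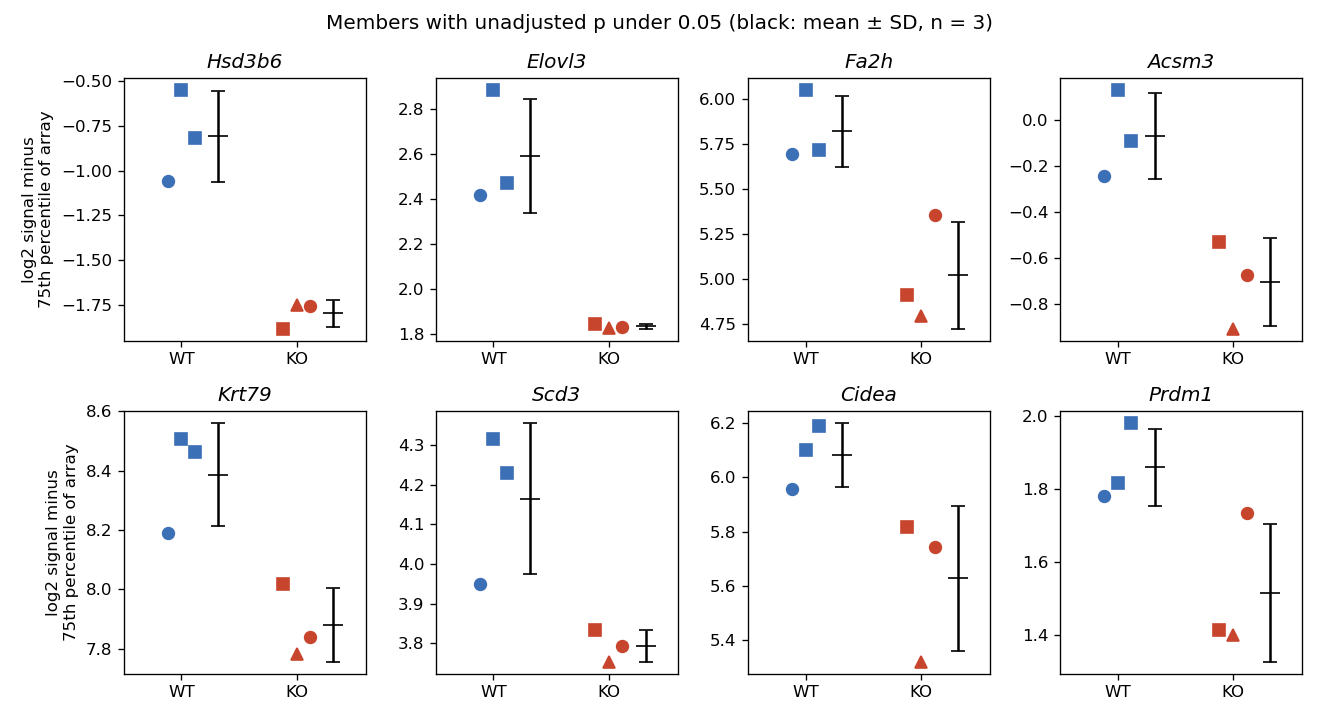
Log2 signal relative to the array's 75th percentile (vertical axis) for the 8 members with a limma unadjusted p under 0.05, by group, with a separate scale for each gene. Points are single arrays (blue WT, red KO; circle slide 1, square slide 2, triangle slide 3) and black bars give the mean ± SD of 3 arrays. In every panel the 3 KO arrays lie below the 3 WT arrays, by the widest margin for Hsd3b6 and the narrowest for Prdm1, where KO replicate 3 (1.73) approaches WT replicate 1 (1.78).

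The other 3 members with a probe that did not pass the background filter, besides Far2, have no measured fold change. Alox15, a lipoxygenase, was not well above background on any array. Fads2, the delta-6 desaturase, was above it in KO replicate 1 only. Cyp2g1, a cytochrome P450, was above it in WT replicate 2 and KO replicates 1 and 2, reading −4.30, −3.35 and −6.15 in WT and −3.69, −2.80 and −4.68 in KO.

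The members' spread followed single arrays as well as genotype. KO replicate 2 was the lowest of the 6 arrays for 17 of the 25 members, and WT replicate 2 the highest for 14. As KO replicate 2 was the only array on slide 3, its own values and those of the slide cannot be told apart. Within WT, replicate 1 was the lowest for 18 members. Without KO replicate 2 the members' median fold change was −0.16 in place of −0.32. The count of members at an unadjusted p under 0.05 and lower in KO was 5 in place of 8 when WT replicate 2, WT replicate 3 or KO replicate 2 was left out, and 10 without WT replicate 1. In each of the first 3 cases the 5 were Hsd3b6, Elovl3, Fa2h, Acsm3 and Krt79. The count over all 22823 features, in either direction, moved as well. It was 2685 in the main fit, 1830, 1728 and 1655 in those 3 cases and 3683 without WT replicate 1.

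Within slides the difference was smaller in size on slide 1 than on slide 2 for 21 of 25 members. The median over members was −0.052 on slide 1, −0.19 on slide 2 and −0.15 when slide entered the fit as a block. KO replicate 2 lay alone on slide 3, so the slide term takes up its value and the block fit rests on slides 1 and 2. That fit is therefore close to leaving out KO replicate 2 and is no separate check. Of the 25 members, 14 were negative and 2, Awat2 and Ldhb, positive on both slides; the 11 without overlap are negative on both by the way they were counted. Hsd3b6 was −0.70 and −1.20, Elovl3 −0.59 and −0.84, Acsm3 −0.43 and −0.55, Krt79 −0.35 and −0.47 and Fa2h −0.34 and −0.97 on slides 1 and 2. These 5 genes kept an unadjusted p under 0.05 with slide as a block (limma, 0.00350 to 0.0275), whereas Scd3 (0.0851), Cidea (0.0984) and Prdm1 (0.143) did not. Prdm1 was −0.046 on slide 1 and −0.48 on slide 2. Awat1, Dgat2l6 and Plin2 were negative on slide 1 and positive on slide 2, and Awat2 was 0.23 and 1.23.

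**Figure D3:**
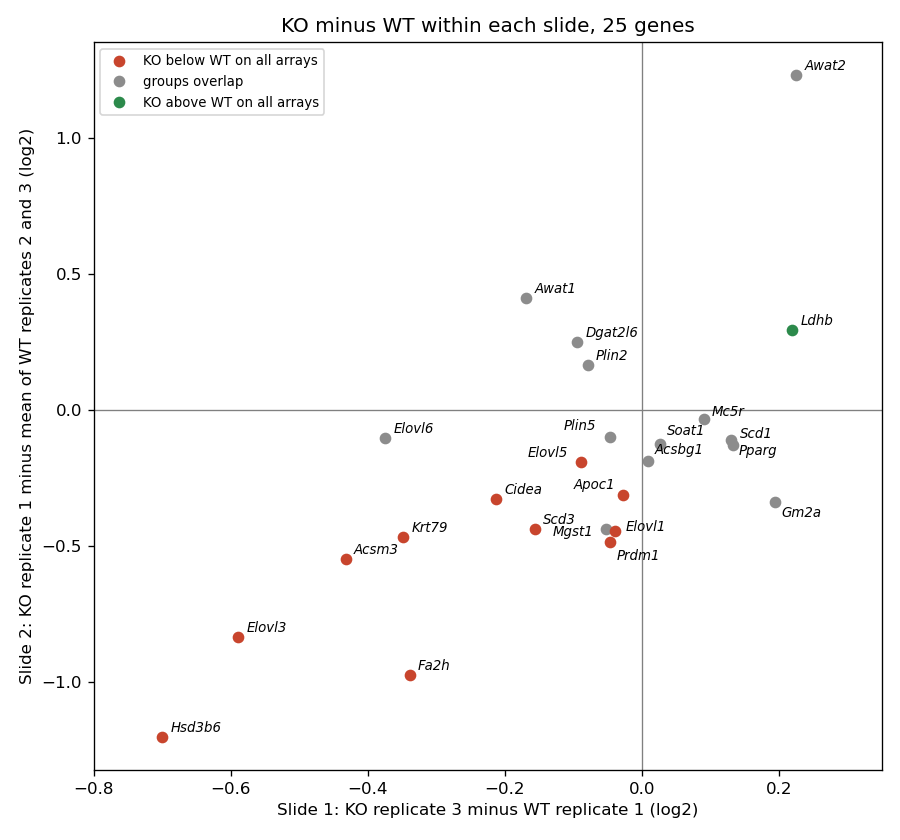
KO minus WT log2 difference of each of the 25 measured members on slide 1 (horizontal axis, KO replicate 3 minus WT replicate 1) and on slide 2 (vertical axis, KO replicate 1 minus the mean of WT replicates 2 and 3). Red marks genes with every KO array below every WT array, green the reverse and grey an overlap; the red points lie in the lower left by definition, and of all 25 genes 14 lie there. Hsd3b6 is at −0.70 and −1.20 and Awat2 at 0.23 and 1.23.

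Other genes of lipid synthesis were read from lists written with earlier results known. Of 28 measured fatty acid synthesis genes, none passed over all genes, 7 were lower and 1 higher at an unadjusted p under 0.05 (5.5% and 6.26% of all features), and the median fold change was −0.18 (−0.085 for all features). The dehydratases Hacd3 (−0.58) and Hacd2 (−0.60), which act with the elongases in each round of chain lengthening, Elovl4 (−0.66), an elongase of the epidermal barrier, and Acsl4 (−0.44), an acyl-CoA synthetase, had the smallest p-values and were lower on every KO array. Hacd1, an isoform typical of muscle, was the 1 higher gene (0.34) and is named after its value was seen.

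Of 29 glycerolipid and droplet genes, 2 were lower and 3 higher at that p, with a median of −0.22. Against the same shares of all features, these counts and those of the next 2 lists are too small to be read as a result about the lists. Mgll, a monoacylglycerol lipase, was lower on every KO array (−0.67, SE 0.16), and Mogat2, an acyltransferase named after its value was seen, overlapped; it was well above background on 3 WT arrays but only 2 of 3 KO arrays, so its fold change (−2.17, SE 0.86) is uncertain and it entered the fit through WT. Fitm1, a droplet protein abundant in muscle, was higher (1.89, SE 0.48), with Lpin1 (0.38) and Gpam (0.53). Of 32 ether lipid and peroxisome genes 1 was lower, the fatty acid transporter Slc27a4 (−0.47, SE 0.12), and the median was −0.061. Of 25 measured regulators, steroid enzymes and receptors of gland cells, 2 were lower and 2 higher, with a median of −0.088. They included Hsd17b2 (−0.59), Plet1 (−0.54) and Ppargc1a (0.71). Hsd17b2, which inactivates sex steroids, read −0.30, −0.00093 and −0.50 in WT against −0.93, −0.75 and −0.91 in KO. None of the genes in these 4 lists passed over all genes.

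Markers of other skin compartments also differed between the arrays. The 10 markers of the upper follicle and gland duct had a median fold change of −0.37, with 8 negative (64.1% of all features were). Cst6 (−0.65), Defb6 (−0.70) and Plet1 (−0.54) were lower at an unadjusted limma p under 0.05, as were 5.5% of all features. The summed signal, in multiples of the 75th percentile, ran from 530.99 to 682 in WT and from 354 to 429 in KO. Such a sum weighs the brightest genes most, here Cst6. Epidermal markers were negative in 11 of 11, against that same 64.1%, with a median of −0.21, none at an unadjusted p under 0.05, and sums of 2164 to 2790 in WT and 2106 to 2153 in KO. The members' own sums, in which Krt79 was the brightest gene, were 943 to 1193 in WT and 742 to 918 in KO.

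Skeletal muscle markers lay higher in KO, 18 of 18, with a median of 1.72. Their sums were 2700, 1033 and 745 in WT replicates 1, 2 and 3 and 3090 to 3982 in KO, so WT replicate 1, the lowest WT array for most members, lay nearest to KO. White fat markers had a median of −0.18, with 10 of 16 negative (64.1% of all features were), and sums of 527 to 880 in WT and 814 to 1098 in KO. The sums weigh the brightest genes most. The brightest here, Car3 (0.77) and Cfd (0.65), were among the 6 that lay higher, so the sums and the median go in opposite directions. Fibroblast markers had a median of −0.17. Of the brown fat markers Ucp1 did not pass the background filter; the list holds Cidea and Elovl3 themselves and genes shared with muscle, and had a median of 0.31. The hair shaft and inner root sheath markers, low in resting follicles, summed to 8.73 to 13.2 in WT, 331 and 217 in KO replicates 1 and 2, and 7.83 in KO replicate 3. KO replicates 1 and 2 are described as telogen like the other arrays, and their hair cycle stage was not tested. Leaving out KO replicates 1 and 2 leaves 1 KO array that is assumed to vary like the WT arrays. The members' median fold change was then −0.29, against −0.017 for all features. The part of muscle, hair growth, epidermis or duct content in the members' values was not tested.

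**Figure D4:**
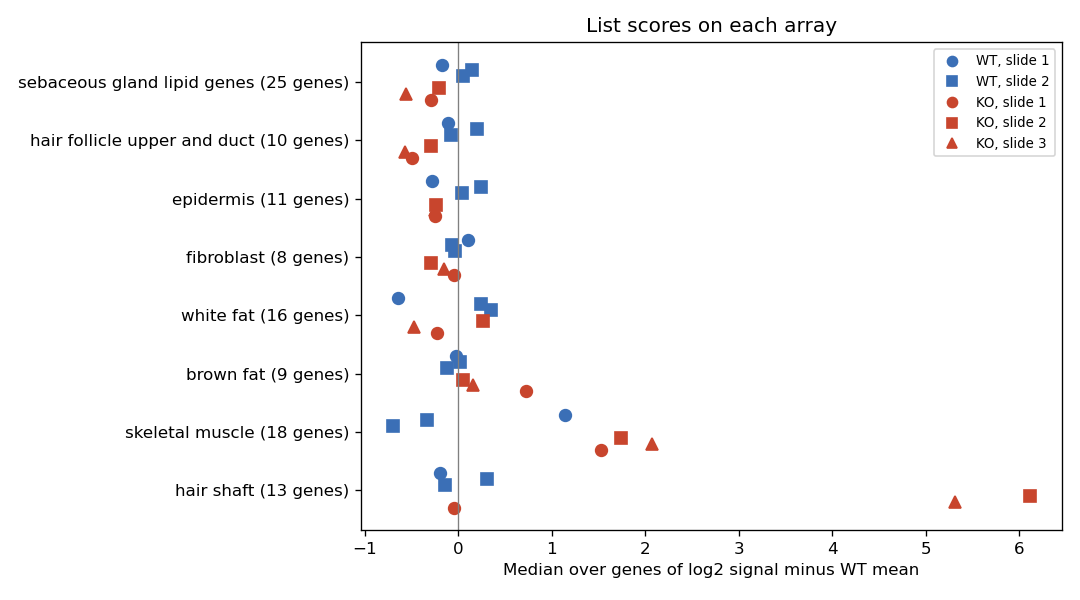
Median over the measured genes of each list of the log2 signal minus the gene's WT mean (horizontal axis), for the sebaceous gland lipid genes and 7 marker lists (vertical axis), on each of the 6 arrays. Blue is WT, red is KO, and the marker gives the slide. The sebaceous scores are −0.17, 0.15 and 0.049 in WT and −0.21, −0.56 and −0.29 in KO, muscle separates WT replicate 1 (1.14) from the other WT arrays, and the hair shaft scores of KO replicates 1 and 2 (6.11 and 5.31) stand apart.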

How the data were processed

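Gene expression was measured on 1-colour Agilent arrays (Cy3) in skin of 3 WT and 3 KO mice. The deposited spot intensity values are output of Agilent Feature Extraction 11.5.1.1, background-subtracted within the array, per the file headers; spot flags (above background, saturated, outlying) are deposited as 0 or 1. The authors also deposited a log2 value table; limma is listed, with no version, in the submitters' processing notes. Each of its 6 columns followed an array of the other group than its heading (r = 0.942 to 0.964 over 27353 probes), so it was used for no value, and groups come from the scanner files, in which Sox4 is low in KO.

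Spots were averaged per probe without outlier flags (31 of 55681 probes lost), and log2 values were taken relative to each array's 75th percentile. Accessions were named through a RefSeq table (GRCm38.p6; 27497 probes named, 28153 not). A probe entered the fit if all 3 arrays of either group read well above background, and a gene is its brightest such probe. Groups were compared across all 22823 features with limma 3.58.1 in R 4.3.3 (lmFit, eBayes, two-sided, Benjamini-Hochberg, threshold 0.05), after the fit was tested on simulated data. Members, lists and tests were chosen with earlier results of these data known. By the naming rule every member is named by role, with all 6 values where unadjusted p was under 0.05 or groups did not overlap and group levels otherwise; pathway lists give up to 4 genes of smallest p and marker lists up to 3. A gene that this rule names in a pathway list is not reported here. Array values of some overlapping members were added after they were seen. Alternatives covered scaling, background, filters, probe choice, slide, age, replicate block, trend and each array left out. The SOX motif was added after the data were seen. The planned normexp alternative used the median spot signal, as the files hold no mean signal. The labels' replicate numbers were not treated as pairs: deviations of same-numbered arrays correlated at −0.13, −0.036 and 0.081.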

Additional observations from a re-analysis of the deposited data

How the results depend on the processing

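No member passed the adjusted threshold under any alternative except Hsd3b6 without WT replicate 1, so the count of called members ran from 0 to 1 when arrays were left out. All 8 members with an unadjusted limma p under 0.05 stayed negative in all 18 alternatives. Hsd3b6 ran from −1.12 to −0.76 and Elovl3 from −0.85 to −0.61. For these 8 every KO array lay below every WT array, so leaving out arrays or blocking by slide could not turn the sign. The other alternatives reuse the same arrays, so the sign is no independent check. The count of members lower at that unadjusted p was 5 with slide as a block, which also sets KO replicate 2 aside. It was 5 to 10 with 1 array left out. Features at that p in either direction numbered 2685 in the main fit, 1835 with the block and 1655 to 3683 with 1 array left out. Leaving out KO replicates 1 and 2 was a choice made after seeing the data. It leaves 1 KO array, assumed to vary like WT. Members without overlap numbered 7 under median centring and under normexp background correction, in place of 11. All features without overlap were not counted under these settings, so the drop cannot be read as particular to the members. With age as a covariate, which differs between groups, the median was −0.59. Calls over all features were 11 with quantile normalization, 15 with median centring or slide as a random block, 8 with normexp, 2 without a filter, 9 with the strict filter, 1 with slide as a block, 141 with age and 0 without KO replicates 1 and 2 (1019 with a limma unadjusted p under 0.05). With 1 array left out they ran from 2 to 303: 303 without WT replicate 1, 88 without KO replicate 3, and 2 or 3 without any of the others. The replicate block called 0 features (2217 with a limma unadjusted p under 0.05), left 6 members at an unadjusted p under 0.05, and ended the call of Sox4 (−3.56, adjusted p = 0.103), as did the fit with that 1 KO array (−3.66, adjusted p = 0.145).

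The sign turned for 7 members under some alternative. With slide as a block these were Mc5r (0.019), Awat1 (0.16), Dgat2l6 (0.10), Plin2 (0.060) and Plin5 (−0.076); with age Awat2 (−0.45); and without KO replicates 1 and 2 Mc5r (0.16). With 1 array left out, Scd1 ran from −0.39 to 0.0040, Awat1 from −0.32 to 0.10, Awat2 from −0.30 to 0.71, Dgat2l6 from −0.32 to 0.087, Mc5r from −0.72 to 0.046, Plin2 from −0.29 to 0.012 and Plin5 from −0.20 to 0.20. The cause was not tested.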
